A study of Mus musculus with 8 samples.

Results

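Genes of sterol and fatty acid synthesis were followed in mouse embryonic stem cells (ESCs) that had lost or kept induced WDR5. A list of 35 genes was fixed by name, with earlier results of these data known, so it is not independent of them. It covers the enzymes of the mevalonate pathway, those that turn squalene into cholesterol and the regulators that sense sterols. Also on it are a pair of sterol transport proteins and the enzymes that make, lengthen and desaturate fatty acids. A gene was measured by the probe sets that carry its symbol and no other symbol, and 34 of the 35 had at least 1 such probe set (Acat2 had none). All 34 were among the 11940 genes that passed the expression minimum and were tested, so the minimum dropped none of them. They rest on 66 probe sets above the minimum, with 20 genes averaged over several probe sets and 14 read by 1.

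The 8 arrays measured total RNA of V6.5 mouse ESCs grown on gelatin in medium with serum and LIF. Every group carried a lentiviral cassette that constantly expresses an shRNA against the cells' own Wdr5 mRNA, together with a human WDR5 transgene linked to GFP under a doxycycline-inducible promoter, and cells were sorted for GFP. The groups were F266A -dox (transgene with the F266A substitution, which impairs RNA binding, no doxycycline), F266A +dox (the same line with doxycycline at 2 µg/mL), WT -dox (wild-type transgene, no doxycycline) and WT +dox (the same line with doxycycline at 2 µg/mL), with 2 arrays each, described as biological duplicates. Since the shRNA was present in all 4 groups, none shows cells with their own Wdr5 mRNA untouched. The study describes 1 line of each transgene, so the substitution and other differences between the lines cannot be told apart, and neither can the loss of the transgene and the removal of doxycycline itself. The study also reports that the lines had equal transgene RNA but less human WDR5 protein in the F266A line. The lines were thus not compared at matched protein levels, and the substitution and the amount of protein cannot be told apart.

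Cholesterol and fatty acid synthesis share a control circuit in mammalian cells. When membranes of the endoplasmic reticulum run low in sterol, the escort protein SCAP carries the precursors of the SREBP transcription factors, encoded by Srebf1 and Srebf2, to the Golgi, where proteases release the active factors. With ample sterol, INSIG proteins hold SCAP back in the endoplasmic reticulum. SREBPs bind sterol regulatory elements, usually beside sites for partners such as NF-Y, and activate genes along both pathways, Insig1 among them.

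All values are log2 expression levels as the authors normalised them, and differences are on the log2 scale with the standard error (SE) of the fit. Calls were made where the p-value, adjusted over all genes tested, was under 0.05. The median SD between duplicates was 0.063 for these 34 genes and 0.079 for all genes. ESC markers were high in all groups, with all 9 of the list measured, but their summed linear level was 43800 to 46100 in F266A -dox, 52100 to 52600 in F266A +dox, 54200 to 55200 in WT -dox and 58300 to 58800 in WT +dox. All 9 means were lower in F266A -dox than in F266A +dox. In WT -dox 5 of the 9 were lower than in WT +dox. The other 4 ran against the sum: Pou5f1 (12.97 against 12.90), Zfp42 (11.88 against 11.78), Tdgf1 (13.27 against 13.19) and Utf1 (9.54 against 9.30). The neural progenitor list (5 of 8 measured) summed to 680 to 714 in F266A -dox, 553 to 567 in F266A +dox, 589 to 599 in WT -dox and 465 to 494 in WT +dox. Of these 5 genes only Sox1 ran against the sum, with a lower mean in F266A -dox (5.43, under the expression minimum) than in WT +dox (6.08). The trophectoderm list (5 of 6 measured) summed to 1150 to 1220, 1130 to 1140, 992 to 1010 and 1210 to 1250 in the same order of groups, the endoderm list (5 of 10) stayed between 303 and 343, and the fibroblast list (2 of 10) between 102 and 183. The trophectoderm sum hides opposite movements. Tfap2c had a lower mean in F266A -dox (8.51) than in WT +dox (9.28). Cdx2 (6.18 against 5.18, which is under the expression minimum), Eomes (8.14 against 7.77), Hand1 (6.80 against 6.61) and Krt7 (8.45 against 8) had higher means. Residual 18S ribosomal RNA averaged 9.93 to 9.95 in F266A -dox, 10.68 to 10.90 in F266A +dox, 11.04 to 11.42 in WT -dox and 11.33 to 11.65 in WT +dox. The distance between 3′ and 5′ probe sets, a measure of RNA integrity, split by line. For Gapdh it was 0.10 to 0.13 in the WT arrays and 0.14 to 0.16 in the F266A arrays. For Actb the order was the reverse, with 0.69 to 0.74 in the WT arrays and 0.53 to 0.63 in the F266A arrays. The part of this split in the comparisons between the lines was not tested. The ESC sum and 18S were thus lowest in F266A -dox and highest in WT +dox, the neural sum the reverse, and their part in the results below was not tested. In RNA from whole cultures, a larger share of cells with a higher level and more RNA per cell cannot be told apart. Mouse Wdr5 itself read 9.31 and 9.27 in F266A -dox, 8.59 and 8.56 in F266A +dox, 9.45 and 9.35 in WT -dox and 8.35 and 8.32 in WT +dox. It was called higher without doxycycline than with it, by 0.71 ± 0.07 in the F266A line (adjusted p = 0.000318) and by 1.06 ± 0.07 in the WT line (adjusted p = 1.47e-05). Mouse Wdr5 is the target of an shRNA that all groups carry, so these levels do not check the labels.

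Doxycycline withdrawal, which asks what changes once WDR5 is no longer induced, was followed by higher levels of a large part of the pathway in both lines. In the F266A line 16 of the 34 genes rose (47.1%), against 8.94% of all genes tested, and 1 fell, against 10.6% of all genes. In the WT line 18 of 34 rose (52.9%), against 16.1% of all genes, and 2 fell, against 15.4%. The median difference over the 34 genes was 0.23 in the F266A line and 0.22 in the WT line, while the median over all genes was 0 in both. The largest change was 0.82, a 1.76-fold increase of Scd2 in the WT line, and no member reached a 2-fold change. The withdrawals use separate arrays, but the genes were chosen with earlier results of these data known, so these shares are descriptive. 13 genes rose in both (Hmgcs1, Mvd, Idi1, Fdps, Sqle, Cyp51, Msmo1, Dhcr7, Insig1, Fasn, Scd1, Scd2 and Fads2). They are 81.2% of those that rose in the F266A line and 72.2% of those that rose in the WT line. Of all genes tested 643 rose in both (5.39%), out of 1067 that rose in the F266A line and 1925 that rose in the WT line. Of the 34, only Acss2 fell in both, as 6.3% of all genes did, and neither of its calls held with its brighter probe set alone (-0.11 in the F266A line, adjusted p = 0.615, and -0.28 in the WT line, adjusted p = 0.138). Without F266A +dox replicate 1 or 2, only 10 or 9 genes rose in the F266A line, and without F266A +dox replicate 1 or F266A -dox replicate 2 none fell. Without WT +dox replicate 2 or WT -dox replicate 2 only 1 gene fell in the WT line.

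**Figure D1:**
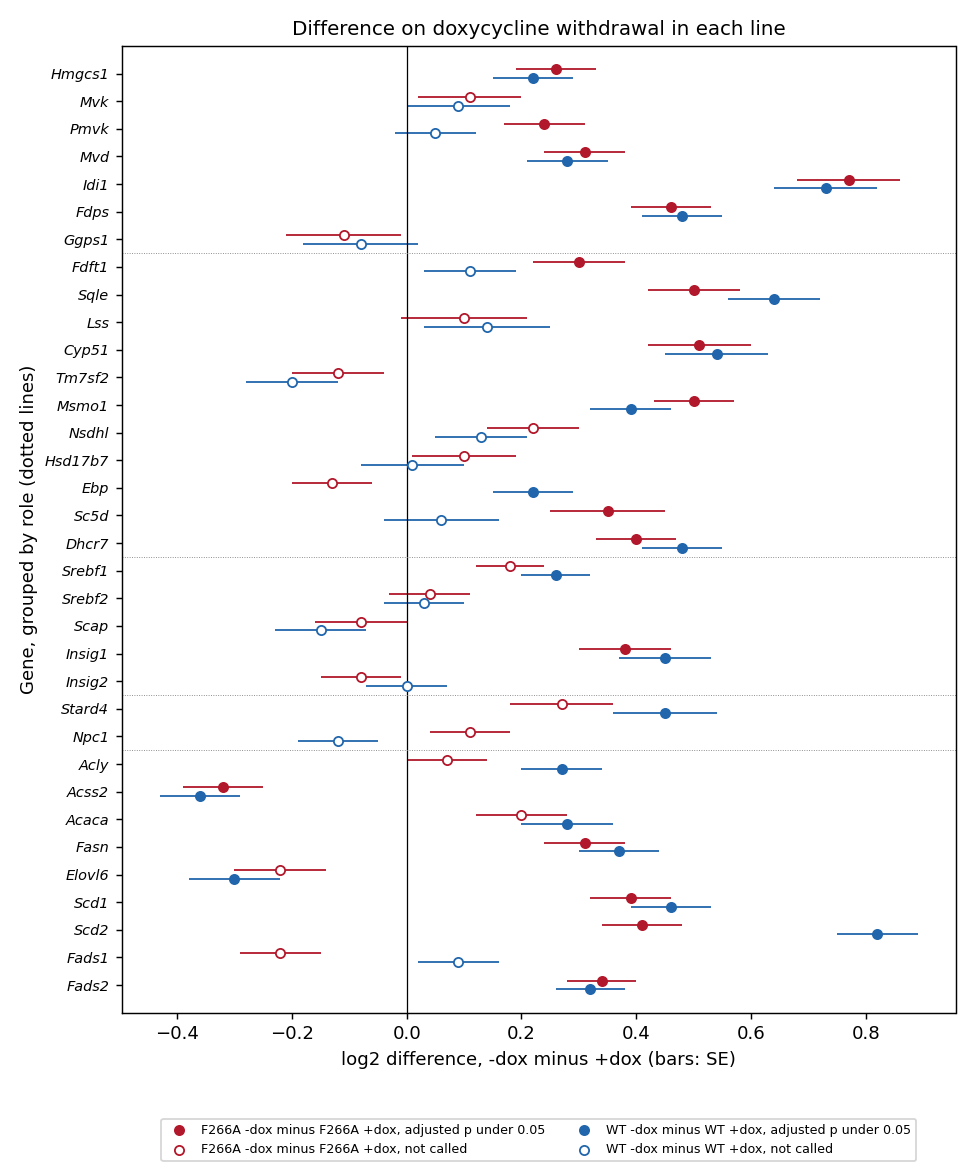
Difference on doxycycline withdrawal (-dox minus +dox, log2, horizontal axis) for each of the 34 measured genes (vertical axis, grouped by role), with red points for the F266A line and blue points for the WT line, bars showing the SE and filled points marking an adjusted p under 0.05. Most points lie right of 0 in both lines, with Idi1 at 0.77 and 0.73, while Acss2 lies at -0.32 and -0.36.

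Promoter windows from RefSeq (assembly GRCm38.p6, 250 bases before to 50 bases after the annotated start) were found for 26 of the 34 genes. None was found for Fdps, Sqle, Scd1 and Scd2, which rose in both withdrawals, or for Fdft1, Stard4, Npc1 and Fads1. The windows found were searched on both strands for the sterol regulatory element TCACNCCAC and the NF-Y box CCAAT, which reads ATTGG on the other strand. The element was found in 1 of 26 genes, Hmgcs1, at -137 to -129 from the start, and in 1.44% of the 27025 genes of the table. The NF-Y box was found in 22 of the 26 genes (84.6%), against 41.1% of all genes, and in 23 of their 34 windows (67.6%), against 37.4% of all 32851 windows. The 4 genes without it were Scap, Acaca, Elovl6 and Fads2, of which Fads2 rose in both withdrawals. A match is a description of letters and not a mapped binding site. The windows below belong to 3 genes that rose in both withdrawals, from early to late steps of the sterol pathway, and to Acss2, called lower in both on the average of its probe sets. Capitals mark the motifs, 5′ to 3′ on the strand of the gene, and the motifs do not overlap.
Hmgcs1 (chr13:119690101-119690400, plus strand): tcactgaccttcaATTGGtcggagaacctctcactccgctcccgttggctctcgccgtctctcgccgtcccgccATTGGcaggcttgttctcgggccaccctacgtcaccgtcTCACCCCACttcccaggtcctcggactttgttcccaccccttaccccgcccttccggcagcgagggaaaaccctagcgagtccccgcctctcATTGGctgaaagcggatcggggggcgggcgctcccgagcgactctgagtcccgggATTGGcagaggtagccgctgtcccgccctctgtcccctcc
Idi1 (chr13:8885356-8885655, plus strand): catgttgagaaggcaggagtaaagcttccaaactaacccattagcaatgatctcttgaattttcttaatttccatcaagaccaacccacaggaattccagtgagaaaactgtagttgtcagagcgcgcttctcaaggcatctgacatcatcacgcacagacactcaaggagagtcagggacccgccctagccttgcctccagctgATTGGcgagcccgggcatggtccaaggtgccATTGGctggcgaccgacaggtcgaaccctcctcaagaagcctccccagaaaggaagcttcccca
Cyp51 (chr5:4104648-4104947, minus strand): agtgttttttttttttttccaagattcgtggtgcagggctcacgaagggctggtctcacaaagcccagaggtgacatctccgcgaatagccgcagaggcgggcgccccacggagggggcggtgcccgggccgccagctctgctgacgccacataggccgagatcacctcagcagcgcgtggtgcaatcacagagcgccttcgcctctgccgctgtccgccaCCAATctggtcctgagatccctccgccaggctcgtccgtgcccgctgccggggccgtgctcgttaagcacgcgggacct
Acss2 (chr2:155517793-155518092, plus strand): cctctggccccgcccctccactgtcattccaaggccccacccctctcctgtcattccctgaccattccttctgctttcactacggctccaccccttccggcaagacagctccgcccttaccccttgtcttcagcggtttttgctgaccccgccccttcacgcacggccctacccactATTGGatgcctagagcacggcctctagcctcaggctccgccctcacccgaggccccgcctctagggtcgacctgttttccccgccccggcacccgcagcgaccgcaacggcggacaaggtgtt
Hmgcs1 holds the sterol regulatory element and 4 NF-Y boxes, Idi1 holds 2 boxes, and Cyp51 and Acss2 hold 1 box each, so the box does not set Acss2 apart from the others.

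The mevalonate pathway builds isoprenoid units from acetyl-CoA. On withdrawal 5 of its 7 measured genes rose in the F266A line (71.4%, against 8.94% of all genes). In the WT line 4 of 7 rose (57.1%, against 16.1%), and none fell in either line. Idi1, the isomerase that interconverts the isoprenoid building blocks, changed most. Its level was 10.78 and 10.68 in F266A -dox, 9.92 and 10 in F266A +dox, 10.41 and 10.33 in WT -dox and 9.52 and 9.76 in WT +dox. In each line both arrays without doxycycline lay above both arrays with it. The difference was 0.77 ± 0.09 in the F266A line (SE, adjusted p = 0.000921), a 1.70-fold increase, and 0.73 ± 0.09 in the WT line (adjusted p = 0.000411), a 1.65-fold increase. Hmgcs1, the synthase that makes HMG-CoA at the head of the pathway, moved much less. It read 11.43 and 11.53 in F266A -dox, 11.24 and 11.20 in F266A +dox, 11.36 and 11.37 in WT -dox and 11.09 and 11.20 in WT +dox, again with no overlap within a line. The differences were 0.26 ± 0.07 in the F266A line (adjusted p = 0.0306) and 0.22 ± 0.07 in the WT line (adjusted p = 0.0422), close to the threshold. The call for Hmgcs1 in the F266A line was lost without either F266A +dox array, without F266A -dox replicate 2 or without either WT -dox array (adjusted p 0.0503 to 0.149), and in the WT line without any 1 of the WT arrays or the F266A +dox arrays (adjusted p 0.0509 to 0.214). Fdps, which joins the units into farnesyl diphosphate, rose by 0.46 in the F266A line and 0.48 in the WT line, and Mvd, the decarboxylase before Idi1, by 0.31 and 0.28. Without its probe set whose name ends in _s_at, an alternative chosen after the data were seen, Mvd differed by 0.26 (adjusted p = 0.112) and 0.18 (adjusted p = 0.211) and was called in neither line. Pmvk, a kinase of the pathway, was called in the F266A line only (0.24, against 0.05 in the WT line). Mvk, the kinase before it, and Ggps1, which leads to geranylgeranyl diphosphate and away from sterols, were called in neither line, with differences of 0.11 and -0.11 in the F266A line and 0.09 and -0.08 in the WT line.

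Of the 11 enzymes from squalene synthesis to cholesterol, 6 rose in the F266A line (54.5%, against 8.94% of all genes). In the WT line 5 rose (45.5%, against 16.1%), and none fell in either line. Sqle, squalene epoxidase, a rate-limiting enzyme of this branch, read 10.37 and 10.31 in F266A -dox, 9.89 and 9.79 in F266A +dox, 10.18 and 10.19 in WT -dox and 9.45 and 9.64 in WT +dox. The arrays without doxycycline lay above those with it in each line, by 0.50 ± 0.08 in the F266A line (adjusted p = 0.00368) and 0.64 ± 0.08 in the WT line (adjusted p = 0.00045). Cyp51, the lanosterol demethylase, read 8.77 and 8.63 in F266A -dox, 8.21 and 8.17 in F266A +dox, 8.46 and 8.43 in WT -dox and 7.80 and 8.01 in WT +dox. Its difference was 0.51 ± 0.09 in the F266A line (adjusted p = 0.00422) and 0.54 ± 0.09 in the WT line (adjusted p = 0.00144), with no overlap in either. Msmo1, which oxidises methyl groups of the sterol ring, rose by 0.50 in the F266A line and 0.39 in the WT line, and Dhcr7, a reductase of the last steps, by 0.40 and 0.48. Fdft1 (squalene synthase, 0.30) and Sc5d (a sterol desaturase, 0.35) were called in the F266A line, while the WT line had 0.11 and 0.06, not called. These WT averages combine probe sets that disagree: 4 for Fdft1 at 0.31, 0.18, 0 and -0.06, and 2 for Sc5d at 0.29 and -0.16. With the brightest probe set alone both genes were called in the WT line too (Fdft1 0.31, adjusted p = 0.0167, and Sc5d 0.29, adjusted p = 0.0336), and likewise with an expression minimum of 100 (Fdft1 0.25, adjusted p = 0.0154, and Sc5d 0.29, adjusted p = 0.0208). Ebp, a sterol isomerase, was called in the WT line only (0.22), with -0.13 in the F266A line. Tm7sf2, a sterol reductase that acts after Cyp51, did not follow these genes: it read 6.75 and 6.97 in F266A -dox, 6.97 and 7 in F266A +dox, 7.26 and 7.34 in WT -dox and 7.51 and 7.48 in WT +dox. Its difference was -0.12 ± 0.08 in the F266A line and -0.20 ± 0.08 in the WT line, and it was called in neither. Nsdhl, Hsd17b7 and Lss were called in neither withdrawal. The average of Lss, lanosterol synthase, also combines probe sets that disagree: of its 3, 1 rose by 0.28 in the F266A line and 0.47 in the WT line, and another had -0.13 and -0.19. The probe set that rose is the brightest. With it alone Lss was called higher in both withdrawals (adjusted p = 0.0312 in the F266A line and 0.00169 in the WT line).

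**Figure D2:**
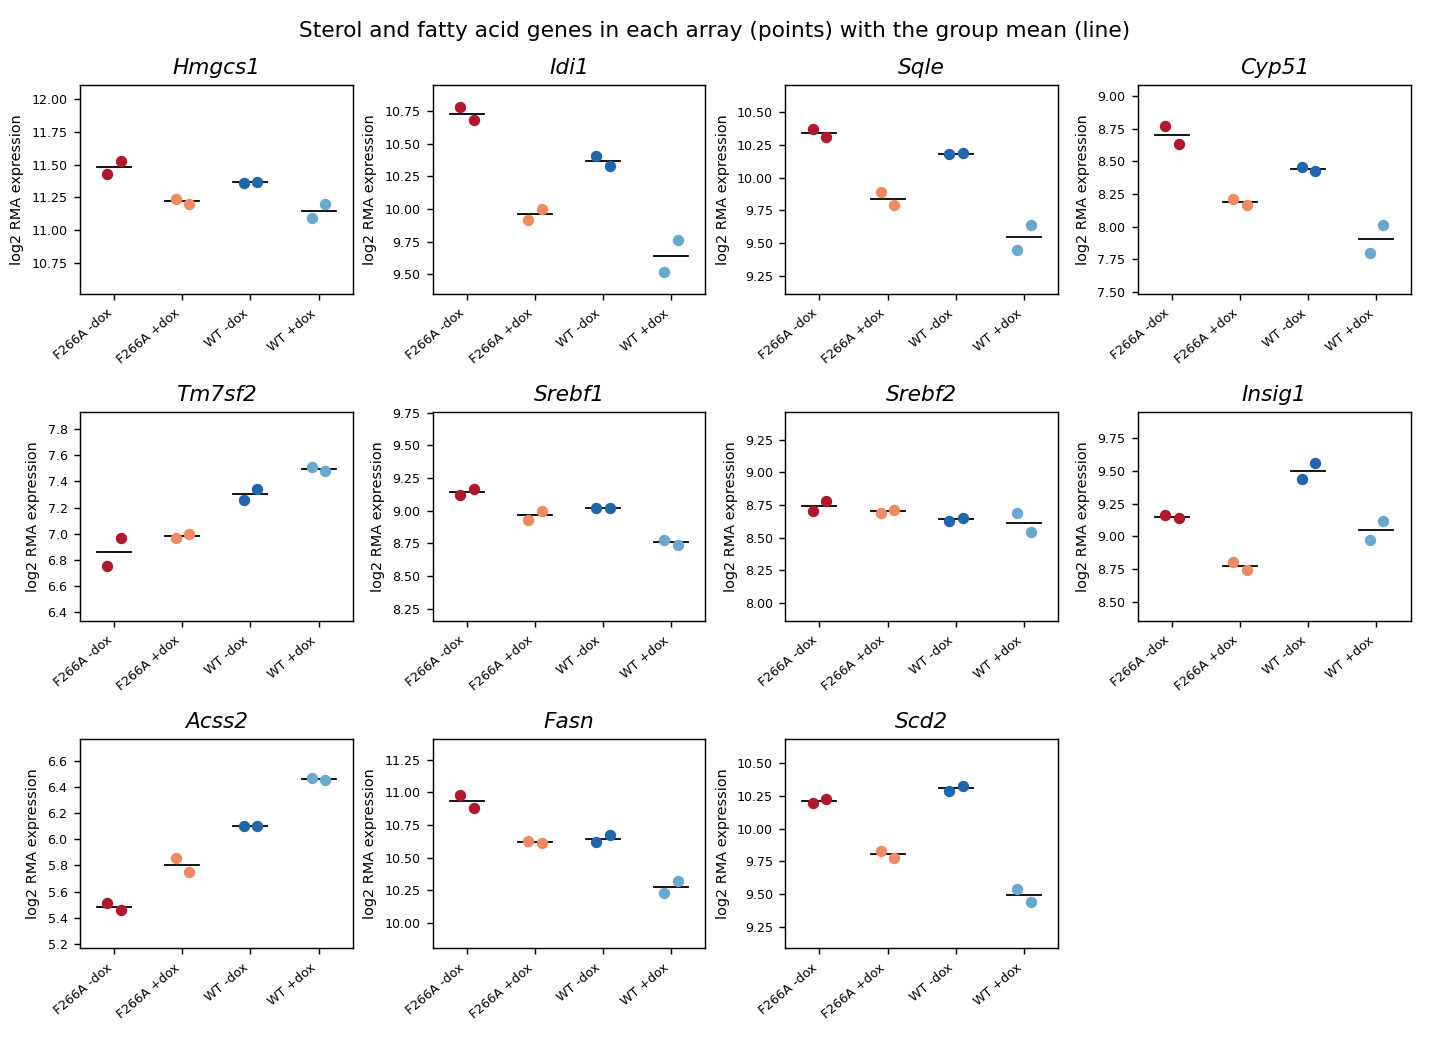
Log2 RMA expression (vertical axis, the same span in every panel) of 11 genes in each array, with 2 points per group and a line at the group mean; groups run from F266A -dox at the left to WT +dox at the right. Idi1, Sqle, Cyp51 and Scd2 are higher without doxycycline in each line, Srebf2 stays between 8.54 and 8.78, and Acss2 and Tm7sf2 are highest in WT +dox.

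Among the regulators, Insig1 rose in both withdrawals, Srebf1 was called in the WT line only, and Srebf2, Scap and Insig2 in neither. Srebf2, which encodes the SREBP that acts mostly on sterol genes, read 8.70 and 8.78 in F266A -dox, 8.69 and 8.71 in F266A +dox, 8.63 and 8.65 in WT -dox and 8.69 and 8.54 in WT +dox. Its groups overlapped within each line, with differences of 0.04 ± 0.07 in the F266A line (adjusted p = 0.711) and 0.03 ± 0.07 in the WT line (adjusted p = 0.812). Srebf1, whose products act mostly on fatty acid genes, read 9.12 and 9.17 in F266A -dox, 8.93 and 9 in F266A +dox, 9.02 and 9.02 in WT -dox and 8.78 and 8.74 in WT +dox. Its difference was 0.18 in the F266A line, not called, and 0.26 ± 0.06 in the WT line (adjusted p = 0.0139), a call that was lost without either WT -dox array or WT +dox replicate 2 (adjusted p 0.0683 to 0.0731). Insig1, itself an SREBP target that restrains the circuit, read 9.16 and 9.14 in F266A -dox, 8.80 and 8.74 in F266A +dox, 9.44 and 9.56 in WT -dox and 8.97 and 9.12 in WT +dox. Its -dox arrays lay above the +dox arrays in each line, by 0.38 ± 0.08 in the F266A line (adjusted p = 0.00966) and 0.45 ± 0.08 in the WT line (adjusted p = 0.00227). Without F266A +dox replicate 2 the F266A difference of Insig1 was 0.35 (adjusted p = 0.0617). Of the transport genes, Stard4, a cytosolic sterol carrier, was called in the WT line (0.45) and not in the F266A line (0.27, adjusted p = 0.0525), while Npc1, which exports cholesterol from lysosomes, was called in neither (0.11 and -0.12). The calls for Stard4 turned round with its brightest probe set alone, which gave 0.32 in the F266A line (adjusted p = 0.0255) and 0.24 in the WT line (adjusted p = 0.0514). Its 3 probe sets differed by 0.88, 0.23 and 0.24 in the WT line, and with a minimum of 100 the F266A line was called as well (adjusted p = 0.0353).

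Of the 9 fatty acid genes, 4 rose (44.4%, against 8.94% of all genes) and 1 fell (11.1%, against 10.6%) in the F266A line. In the WT line 6 rose (66.7%, against 16.1%) and 2 fell (22.2%, against 15.4%). Fasn, fatty acid synthase, read 10.98 and 10.88 in F266A -dox, 10.63 and 10.61 in F266A +dox, 10.62 and 10.67 in WT -dox and 10.23 and 10.32 in WT +dox. The difference was 0.31 ± 0.07 in the F266A line (adjusted p = 0.0143) and 0.37 ± 0.07 in the WT line (adjusted p = 0.00354). In the F266A line the call for Fasn was lost without either F266A +dox array or without F266A -dox replicate 1 (adjusted p 0.0652 to 0.0703). Scd2, a stearoyl-CoA desaturase that introduces the double bond of oleate, read 10.20 and 10.23 in F266A -dox, 9.83 and 9.78 in F266A +dox, 10.29 and 10.33 in WT -dox and 9.54 and 9.44 in WT +dox. It was higher without doxycycline by 0.41 ± 0.07 in the F266A line (adjusted p = 0.00423) and by 0.82 ± 0.07 in the WT line (adjusted p = 5.38e-05). Its paralog Scd1 rose by 0.39 and 0.46, and cross-hybridisation between these close paralogs was not tested. Fads2, a desaturase of polyunsaturated fatty acids, rose by 0.34 and 0.32. Acly, which makes cytosolic acetyl-CoA from citrate, and Acaca, the carboxylase that commits it to fatty acids, were called in the WT line only (0.27 and 0.28, against 0.07 and 0.20 in the F266A line). Acss2, which makes acetyl-CoA from acetate, ran against the rest on the average of 2 probe sets: it read 5.51 and 5.46 in F266A -dox, 5.86 and 5.75 in F266A +dox, 6.10 and 6.10 in WT -dox and 6.47 and 6.45 in WT +dox. It fell by 0.32 ± 0.07 in the F266A line (adjusted p = 0.0104) and by 0.36 ± 0.07 in the WT line (adjusted p = 0.00337). The brighter probe set read 6.49 and 6.11 in F266A -dox, 6.44 and 6.38 in F266A +dox, 6.55 and 6.86 in WT -dox and 7.01 and 6.95 in WT +dox, and overlapped between -dox and +dox in the F266A line. The dimmer one read 4.52 and 4.80 in F266A -dox, 5.28 and 5.13 in F266A +dox, 5.65 and 5.34 in WT -dox and 5.93 and 5.95 in WT +dox, so that no F266A array reached the minimum of 5.64. With the brighter one alone both withdrawal calls of Acss2 were lost, as given above, and likewise with a minimum of 100 (adjusted p = 0.572 in the F266A line and 0.104 in the WT line). The mean of 5.48 in F266A -dox is under that minimum, and the call in the F266A line was lost without F266A +dox replicate 1 or F266A -dox replicate 2 (adjusted p = 0.0769 and 0.0529). Elovl6, the elongase for saturated chains, fell in the WT line (-0.30) and was not called in the F266A line (-0.22), and the desaturase Fads1 was called in neither (-0.22 and 0.09).

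Several of the smaller changes also rested on single arrays. Mvd lost its call in the F266A line without either F266A +dox array or F266A -dox replicate 1 (adjusted p 0.0532 to 0.102), and in the WT line without either WT -dox array or WT +dox replicate 2 (0.0606 to 0.108). In the F266A line Pmvk lost its call without either F266A +dox array, F266A -dox replicate 2 or either WT -dox array (0.0596 to 0.17), Fdft1 without either F266A +dox array or F266A -dox replicate 2 (0.0811 to 0.116), and Sc5d without either F266A +dox array or F266A -dox replicate 1 (0.0945 to 0.17). In the WT line Ebp lost its call without any 1 of the WT or F266A +dox arrays (0.0531 to 0.173), Acly without any 1 of the WT arrays (0.0578 to 0.0831), Acaca without either WT -dox array or WT +dox replicate 1 (0.0749 to 0.137), and Elovl6 without either replicate 2 of that line (0.107 and 0.111). With no expression minimum, which averages dim probe sets into a gene, the withdrawal calls for Msmo1 (0.0971 in the F266A line and 0.475 in the WT line), Fdps (0.0502 and 0.0655) and Acss2 were lost as well.

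The lines were compared with and without doxycycline. With doxycycline 10 of the 34 genes were higher in F266A than in WT cells (29.4%, against 15.9% of all genes) and 4 were lower (11.8%, against 12.5%), with a median difference of 0.07. Without doxycycline 5 were higher (14.7%, against 14% of all genes) and 4 lower (11.8%, against 13.4%), with a median of 0.05, shares close to those of all genes. These comparisons use the same arrays as the withdrawals, so they are not separate evidence. The count of 10 rested on single arrays: it was 4 without WT +dox replicate 1, 6 without WT +dox replicate 2, 3 without F266A +dox replicate 1 and 5 without F266A +dox replicate 2. The count of 5 was 3 without either WT -dox array and 2 without F266A -dox replicate 1.

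Idi1, Msmo1, Fasn and Scap were higher in F266A cells in both comparisons (4 of 34, as 8.48% of all genes were), and Acss2, Tm7sf2, Insig1 and Scd1 were lower in both (4 of 34, as 6.02% of all genes were). Acss2, with the levels given above, had both F266A arrays below both WT arrays with and without doxycycline. The difference was -0.62 ± 0.07 without doxycycline (adjusted p = 0.000208) and -0.65 ± 0.07 with it (adjusted p = 0.000138), and with its brighter probe set alone -0.40 (adjusted p = 0.0498) and -0.57 (adjusted p = 0.0105). Tm7sf2 differed by -0.44 ± 0.08 without doxycycline (adjusted p = 0.00388) and by -0.51 ± 0.08 with it (adjusted p = 0.00158). Insig1 and Scd1, which rose on withdrawal in both lines, were lower in F266A cells, Insig1 with differences of -0.34 ± 0.08 without doxycycline (adjusted p = 0.00993) and -0.27 ± 0.08 with it (adjusted p = 0.0274), and Scd1 with -0.43 and -0.37. The calls for Insig1 were lost without WT -dox replicate 2 in cells without doxycycline (-0.28, adjusted p = 0.0842), and without WT +dox replicate 2 or either F266A +dox array in cells with it (adjusted p 0.0797 to 0.159). Of the genes that were higher, Scap, the sterol sensor and SREBP escort, differed by 0.48 without doxycycline and 0.41 with it, and Msmo1 by 0.49 and 0.38. Fasn differed by 0.29 ± 0.07 without doxycycline (adjusted p = 0.0149) and 0.34 ± 0.07 with it (adjusted p = 0.00569), and the call without doxycycline was lost without F266A -dox replicate 1 or either WT -dox array (adjusted p 0.0514 to 0.0947). Idi1 differed by 0.36 ± 0.09 without doxycycline (adjusted p = 0.0159) and 0.32 ± 0.09 with it (adjusted p = 0.0268). Without doxycycline the Idi1 call was lost without F266A -dox replicate 1 or WT -dox replicate 2 (adjusted p = 0.0743 and 0.0965), and with doxycycline without either F266A +dox array or WT +dox replicate 1 (adjusted p 0.078 to 0.171).

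A further 6 genes, Fdps, Sqle, Cyp51, Ebp, Srebf1 and Scd2, were called higher in F266A cells with doxycycline and not without it (6 of 34, against 6.98% of all genes). Sqle differed by 0.15 without doxycycline and 0.30 ± 0.08 with it (adjusted p = 0.0225), Cyp51 by 0.25 (adjusted p = 0.0523) and 0.29 ± 0.09 (adjusted p = 0.0324), Scd2 by -0.09 and 0.32 ± 0.07 (adjusted p = 0.00773) and Srebf1 by 0.13 and 0.21 ± 0.06 (adjusted p = 0.039). Cyp51 was close to the threshold without doxycycline and was called there under 6 of 17 alternatives (with its brightest probe set 0.40, adjusted p = 0.00645). The calls with doxycycline were lost without WT +dox replicate 1 or F266A +dox replicate 1 for Sqle (adjusted p = 0.146 and 0.138), and also without F266A +dox replicate 2 for Cyp51 (0.0937 to 0.204). For Scd2 they were lost without WT +dox replicate 2 or F266A +dox replicate 1 (0.0543 and 0.0565), and for Srebf1 without any 1 of the WT arrays or the F266A +dox arrays (0.0658 to 0.164). Sc5d was the 1 gene called without doxycycline and not with it (0.36 and 0.07), as 5.34% of all genes were. With doxycycline its 2 probe sets differed by 0.41 and -0.27, and it was called higher with the brightest alone (0.41, adjusted p = 0.00749) or with a minimum of 100 (0.41, adjusted p = 0.00385). Its call without doxycycline was lost without F266A -dox replicate 1 or WT -dox replicate 1 (0.125 to 0.173). Fdps (0.21) and Ebp (0.22), called with doxycycline, lost that call without any 1 of the WT or F266A +dox arrays (0.055 to 0.231 and 0.0646 to 0.169), and Scap lost both calls with no expression minimum (0.113 without doxycycline and 0.372 with it). With no minimum Msmo1 also lost its call with doxycycline (0.273) and kept the one without it. Srebf2 was called in neither, at 0.10 ± 0.07 without doxycycline (adjusted p = 0.357) and 0.08 ± 0.07 with it (adjusted p = 0.439), and neither was Hmgcs1, at 0.12 and 0.07. For Lss with doxycycline, 1 probe set was higher in F266A cells by 0.37, another was lower with -0.65, and the average was not called. The higher one is the brightest, and with it alone Lss was called higher (adjusted p = 0.00641).

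**Figure D3:**
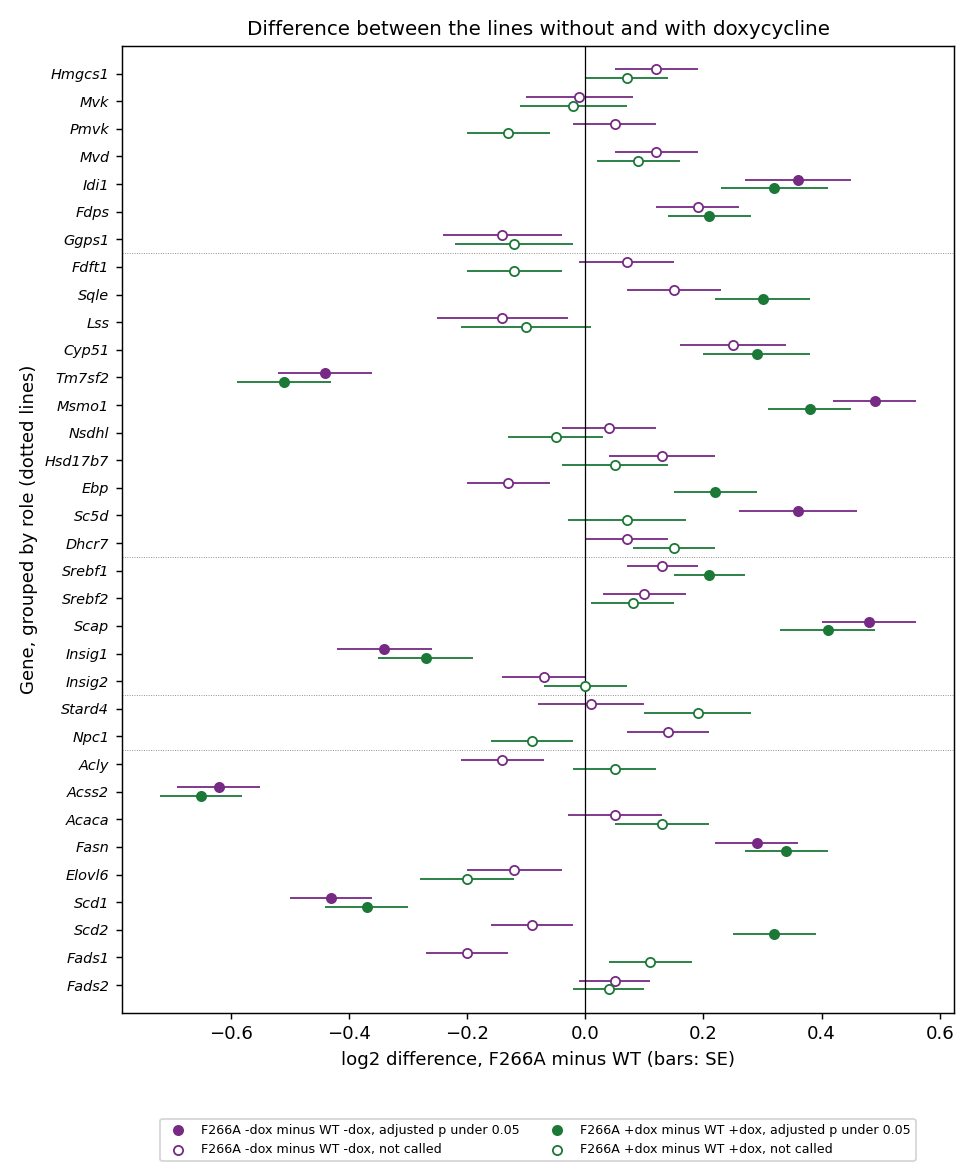
Difference between the lines (F266A minus WT, log2, horizontal axis) for each of the 34 measured genes (vertical axis, grouped by role), in purple without doxycycline and in green with it, with bars showing the SE and filled points marking an adjusted p under 0.05. Acss2, Tm7sf2, Insig1 and Scd1 lie left of 0 in both colours, and Idi1, Msmo1, Scap and Fasn right of 0 in both.

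Whether withdrawal acted differently in the lines was tested as the interaction of line and withdrawal (the F266A difference minus the WT difference). None of the 34 genes was higher by this test, against 2.21% of all genes, and 1, Scd2, was lower, against 2.94%. The interaction for Scd2 was -0.41 ± 0.10 (adjusted p = 0.0439): its increase was 0.41 in the F266A line and 0.82 in the WT line. This call was lost on leaving out any 1 of the 8 arrays (-0.46 to -0.35, adjusted p 0.0676 to 0.144), and neither of its 2 probe sets passed alone (-0.27 and -0.55). The SE of an interaction was about 0.113 for a typical gene, and genes called in 1 line only, such as Ebp (-0.34 ± 0.10, adjusted p = 0.0762), Sc5d (0.29, adjusted p = 0.275) and Stard4 (-0.18, adjusted p = 0.433), did not pass it, so a difference between the lines is not shown for them.

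Across the 4 groups, F266A -dox had the highest mean for 20 of the 34 genes, and WT +dox had the lowest mean for 19. The same shares were not counted over all genes, so these counts are not read as a trait of the pathway. The highest mean lay in WT -dox for 6 genes, Insig1, Scd1 and Scd2 among them, and in F266A +dox and WT +dox for 4 each. Of the 9 genes called in none of the 5 comparisons, 3 are late sterol enzymes (Nsdhl, Hsd17b7 and Lss), and the others are Mvk, Ggps1, Srebf2, Insig2, Npc1 and Fads1. For Lss this holds only for the average of its probe sets. Its brightest probe set alone was called higher in both withdrawals and in F266A +dox against WT +dox. Nsdhl, Ggps1 and Fads1 also gained a call under some alternatives. Insig2 moved least, between 7.64 and 7.81 over the 8 arrays, and Idi1 most, between 9.52 and 10.78.

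**Figure D4:**
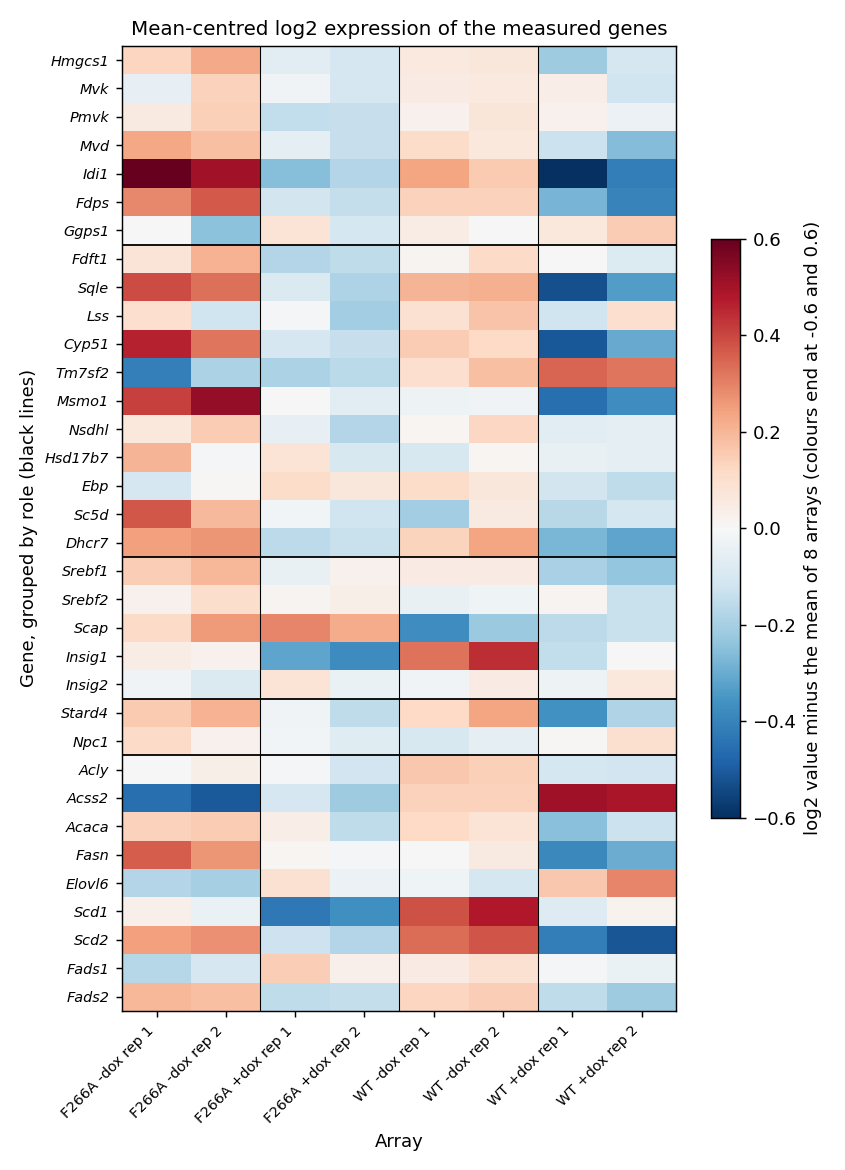
Log2 expression of each of the 34 measured genes (rows, grouped by role) in each of the 8 arrays (columns, F266A -dox to WT +dox), minus the mean of the gene over the 8 arrays, from blue (lower) to red (higher), with colours ending at -0.6 and 0.6. Idi1, Sqle, Cyp51, Msmo1, Fdps and Fasn are red in F266A -dox and blue in WT +dox, and Acss2 and Tm7sf2 run the other way.

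Other genes of lipid metabolism were read from separate lists. Of 36 further genes of sterol and fatty acid synthesis, uptake and activation, 28 were measured. On withdrawal 6 rose (21.4%, against 8.94% of all genes) and 5 fell (17.9%, against 10.6%) in the F266A line, with a median of 0.06. In the WT line 3 rose (10.7%, against 16.1%) and 8 fell (28.6%, against 15.4%), with a median of -0.02. Acsl4, which activates polyunsaturated fatty acids, rose by 0.69 in the F266A line and 0.62 in the WT line, while the elongase Elovl7 fell by 0.53 and 1.14, the elongase Elovl2 by 0.87 and 0.60 (its mean of 5.61 in F266A -dox is under the expression minimum), and Lpin1, a phosphatidate phosphatase, by 0.52 and 0.58. Of 8 genes of cholesterol efflux and its LXR regulators 5 were measured, and Abcg1, a sterol exporter (-0.39 and -0.59), Apoe, a lipoprotein (-0.55 and -0.87), and Mylip, a ubiquitin ligase for lipoprotein receptors (-0.31 and -0.48), fell in both withdrawals (3 of 5, or 60%, in each line, against the 10.6% and 15.4% of all genes), with none higher. Of 20 genes of fatty acid oxidation 17 were measured, and 6 fell and none rose in each withdrawal (35.3%, against 10.6% of all genes in the F266A line and 15.4% in the WT line, with medians of -0.14 and -0.12). Cpt1a, which admits fatty acids to mitochondria, fell by 0.60 ± 0.08 in the F266A line (adjusted p = 0.00171) and by 1.14 ± 0.08 in the WT line (adjusted p = 2.29e-05), with an interaction of 0.55 ± 0.11 (adjusted p = 0.0291). Its level was 7.32 and 7.45 in F266A -dox, 8.01 and 7.95 in F266A +dox, 7.97 and 8.04 in WT -dox and 9.07 and 9.23 in WT +dox, which puts WT +dox above the other groups.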

How the data were processed

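Total RNA of 8 cultures was hybridised to Affymetrix mouse arrays. The authors normalised and summarised the arrays with RMA (R 2.11.1, justRMA). The 45101 probe sets of the deposited table carry log2 expression values, which were used here unaltered. Precision is limited by the number of arrays. Sample titles gave the group and the replicate number. Apart from 64 controls, 34945 probe sets carry 1 gene symbol, 932 several and 9160 none, and those with several or none were left out.

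Probe sets above 50 (linear scale) in any array were kept, as the authors did. These 20046 were averaged by gene to 11940 genes. A single limma model (version 3.58.1, R 4.3.3) of the 4 groups was fitted to the 8 arrays, with 4 residual and 5.32 prior degrees of freedom and no block. The 5 contrasts were tested (two-sided), p-values were adjusted by Benjamini-Hochberg over the 11940 genes, and the fit was tested on simulated data. SAM, which the authors used, was not run.

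Genes given with every array were those called with an absolute difference of at least 0.5 in a contrast, and Srebf1, Srebf2, Insig1, Hmgcs1, Sqle and Fasn whatever they did. Of the other lists, at most 4 called genes with a large change were named. The members and lists were chosen with earlier results of these data known. Alternatives were no minimum or 100, the brightest probe set, quantile or median scaling, a fit restricted to the groups compared, a replicate block, a trended and robust prior, a 2-fold threshold and leaving out each array. Leaving out probe sets ending in _x_at or _s_at was added after the data had been seen. Promoter windows come from a RefSeq table.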

Additional observations from a re-analysis of the deposited data

Results flagged for a closer look

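Scd2 was the 1 gene of the 34 whose change on withdrawal was called different between the lines by the test of the difference itself. It is 2.94% of the 34, and 2.94% of all genes were called lower by this test. The interaction of line and withdrawal was -0.41 ± 0.10 (SE, adjusted p = 0.0439), with an increase of 0.41 in the F266A line and 0.82 in the WT line. The call was lost without any 1 of the 8 arrays, and neither of its 2 probe sets passed alone (adjusted p = 0.213 and 0.0816).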

How the results depend on the processing

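No difference of the 11 genes given with every array changed direction against a call: of 924 alternative values 843 kept the side of the threshold, 73 lost the call and 8 gained one. Called genes kept under the 17 alternatives other than the 2-fold threshold were 7 of 16 that rose on withdrawal in the F266A line (Cyp51, Dhcr7, Fads2, Idi1, Scd1, Scd2, Sqle) and 9 of 18 in the WT line (the same 7 with Fasn and Insig1). The cause of the changes below was not tested.

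With a 2-fold threshold all counts of the 34 genes were 0, and genes called over the whole table were 234 (F266A +dox minus WT +dox), 162 (WT withdrawal), 48 (F266A withdrawal), 216 (F266A -dox minus WT -dox) and 61 (interaction), against 3384, 3763, 2333, 3277 and 615. With no filter on expression, 5 of the 34 genes were higher in F266A +dox than in WT +dox, none fell in either withdrawal, the interaction for Scd2 was lost (0 genes), and 1537 genes in the F266A withdrawal and 290 in the interaction were called over the whole table. With a minimum of 100, or with the brightest probe set per gene, 1 gene fell in the WT withdrawal and 0 in the F266A withdrawal, and the brightest probe set also left 0 in the interaction. In the F266A withdrawal 3 genes fell with quantile normalization and 2 with the trended and robust prior, which also gave 2 lower genes and 1110 genes in all for the interaction.

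Leaving out each array in turn gave 9 to 17 genes higher and 0 to 1 lower in the F266A withdrawal, 12 to 18 and 1 to 3 in the WT withdrawal, 3 to 10 and 3 to 4 for F266A +dox minus WT +dox, 2 to 6 and 3 to 4 for F266A -dox minus WT -dox, and 0 lower for the interaction. Over all genes it called 1014 to 2267, 2359 to 3910, 1932 to 3514, 1944 to 3219 and 174 to 688 genes in the same order.

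Replicate numbers were shared only as numbers: the differences between duplicates correlated between groups at -0.18 to 0.16. With the replicate block 14 genes rose in the F266A withdrawal, 16 in the WT withdrawal, and 7 and 5 were higher in F266A cells with and without doxycycline, while the interaction for Scd2 was lost (0 genes).

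Duplicates from 1 line each show the spread within that line, and arrays give no read depth. Acss2 was under the expression minimum in F266A -dox.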
